A study of Homo sapiens with 6 samples.

Results

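The genes described here are 9 long non-coding RNAs that carry small nucleolar RNAs (snoRNAs) in their introns: GAS5, SNHG1, SNHG5, SNHG6, SNHG8, SNHG12, SNHG15, SNHG16 and ZFAS1. They were chosen by symbol, as 9 of the 59609 gene names in the tables, with earlier results of these data known. Their levels were compared in 3 culture media in the cell line 95D, which derives from human lung cancer and is labelled wild type. Control cells grew in DMEM. The other groups were seeded for 24 h in complete medium and then kept for 48 h in DMEM that lacked either glucose or glutamine. The basal culture medium held 10% fetal bovine serum, whereas both deprived media held 10% dialyzed serum, which the labels do not name for the control, so that serum and deprivation cannot be told apart in a comparison with control. Both sides of the comparison between the deprivations had dialyzed serum.

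A snoRNA host gene is transcribed into a precursor whose introns are trimmed to snoRNAs, while its exons are joined into a spliced RNA. Box C/D snoRNAs guide ribose methylation and box H/ACA snoRNAs guide pseudouridylation, mostly of ribosomal RNA. The spliced RNA of many non-coding hosts has only short reading frames, and ribosomes that start on it expose it to nonsense-mediated decay, the pathway that removes RNAs with an early stop. Many hosts, like the genes for ribosomal proteins, begin their transcripts with a run of pyrimidines called a 5′ terminal oligopyrimidine (TOP) tract. GAS5 takes its name, growth arrest-specific, from its accumulation in cells that have stopped growing, and its spliced RNA is known as a decoy for the glucocorticoid receptor.

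Total RNA freed of ribosomal RNA was sequenced in 2 control libraries, 2 libraries without glucose and 1 library without glutamine. The labels describe 6 libraries, and the second one without glutamine was not analysed here. The labels do not say whether replicates are separate cultures, and the p-values therefore reflect the spread between libraries, possibly a technical one. The inferred depth was 34600000 to 48950000 reads per library. Levels are given as scaled FPKM, fragments per kilobase of transcript relative to all mapped fragments after a trimmed-mean scaling between libraries, which makes them comparable between genes of different length. Changes are log2 fold changes of (FPKM + 1), which understate the change of low genes, with adjusted p-values from limma (Benjamini-Hochberg over 16598 genes tested, threshold 0.05). The libraries held the keratins KRT8 (4.15 to 5.50 scaled FPKM) and KRT18 (15.9 to 21.7) of epithelial cells and the mesenchymal filament VIM (76.2 to 150, highest without glucose), whereas the epithelial genes EPCAM and CDH1 stayed at or below 0.249 and KRT19 was listed at 0 in 5 of 5 libraries. Of the other mesenchymal genes, CDH2 read 8.70 to 9.72, ZEB1 4.42 to 5.90 and FN1 1.44 to 3.485, FN1 being highest without glutamine. The lung marker NKX2-1 stood at 0.709 to 1.17, and SFTPB and SCGB1A1 were listed at 0. The lung markers NAPSA and SFTPC stayed at or below 0.418 and 0.0184. Markers of leukocytes and endothelium did not pass 0.657, and of 4 fibroblast markers only COL1A1 passed 1 FPKM, at 1.83 in the library without glutamine. In such bulk samples fewer cells of a type and less RNA per cell cannot be told apart.

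The start of these genes is shown because many hosts share a TOP tract. RefSeq promoter windows on GRCh38.p14 were found for 7 of the 9 genes, GAS5, SNHG1, SNHG5, SNHG8, SNHG12, SNHG16 and ZFAS1. The stretches below run from 45 bases before to 20 bases after the RefSeq start, 5′ to 3′ on the gene's strand. Capitals mark the core promoter motif TATAAG where it lies 45 to 15 bases before the start, and the longest run of a C followed by at least 4 bases that are each C or T (the first where runs tie) between 10 bases before and 20 after the start.
SNHG5, chr6:85678714-85678778, minus strand: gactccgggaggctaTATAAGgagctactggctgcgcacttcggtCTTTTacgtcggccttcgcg
ZFAS1, chr20:49278597-49278661, plus strand: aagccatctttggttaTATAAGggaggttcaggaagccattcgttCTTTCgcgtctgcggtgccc
SNHG12, chr1:28581854-28581918, minus strand: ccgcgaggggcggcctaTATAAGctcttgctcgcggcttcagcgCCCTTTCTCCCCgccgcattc
SNHG8, chr4:118278717-118278781, plus strand: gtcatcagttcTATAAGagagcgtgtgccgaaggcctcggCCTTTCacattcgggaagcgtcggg
SNHG16, chr17:76557719-76557783, plus strand: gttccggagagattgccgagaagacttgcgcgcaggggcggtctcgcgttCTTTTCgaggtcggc
SNHG1, chr11:62855866-62855930, minus strand: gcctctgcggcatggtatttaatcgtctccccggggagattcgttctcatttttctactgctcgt

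TATAAG lay in this window, on the gene's strand, in 4 of the 7 genes (SNHG5, SNHG8, SNHG12 and ZFAS1) and in 1.0% of 35116 RefSeq promoters. It lay in 2 of 29 promoters of other TOP genes and 0 of 17 promoters of other non-coding snoRNA hosts. A tract of C followed by at least 4 pyrimidines on the gene's strand was found in 5 of the 7, against 38.4% of promoters, 26 of 29 other TOP genes and 10 of 17 other hosts. Where the tract had to begin within 1 base of the start, as a TOP tract does, 3 of the 7 held it (SNHG5, SNHG12 and ZFAS1), against 8.14% of promoters, 20 of 29 other TOP genes and 6 of 17 other hosts. Neither CACGTG, which reads the same on both strands and is the E-box bound by MYC, nor TGATGNAAN on either strand, the element bound by ATF4 and its partners, was present in the 300-base windows of the 7 genes; they lay in 7.26% and 3.61% of promoters. These counts hold for RefSeq windows only. That of GAS5 is set at base 173869045 and does not reach its most frequent GENCODE start, base 173867989. The promoter at that GENCODE start was not searched for the core promoter motif, the E-box or the ATF4 element, so their absence there was not tested. The same holds for the GENCODE starts read below for SNHG1 and ZFAS1. These matches describe letters in a window, and no factor's binding was measured.

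The RefSeq window of GAS5 sits at another start, chr1:173869045. Of its 29 transcripts in GENCODE release 29 on GRCh38, 6 begin at base 173867989 of chromosome 1 on the minus strand, and 2 of 8 SNHG16 transcripts begin at base 76557769 of chromosome 17 on the plus strand. Their first 25 bases are shown, with the starting tract in capitals, because both begin with the same 11 bases, CTTTTCGAGGT. At the GENCODE starts read for them SNHG5 and SNHG12 also begin with such a tract, while SNHG1, SNHG8, SNHG15 and ZFAS1 do not. The start read was the most frequent one, or the most upstream where starts tie. In SNHG15 1 of 10 transcripts begins there, so no start is most frequent. For SNHG1, SNHG8 and ZFAS1 it is not the RefSeq start. ZFAS1 holds a tract at its RefSeq start, base 49278642, but was read here at base 49278178.
GAS5, chr1:173867965-173867989, minus strand: CTTTTCgaggtaggagtcgactcct
SNHG16, chr17:76557769-76557793, plus strand: CTTTTCgaggtcggccgcgtggctg

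Without glucose, 8 of the 9 genes rose against control and 0 fell by limma (1 at an unadjusted p under 0.05, SNHG15), where 55.1% of all genes tested were called, 26.7% as higher and 28.4% as lower. GAS5 and SNHG6 came close to a doubling, SNHG5 followed, and the other 5 rose by smaller amounts. Without glutamine, 9 of the 9 fell against control, where 51.2% of all genes were called, 26.5% as lower and 24.7% as higher. Between the deprivations, 9 of the 9 were lower without glutamine than without glucose, where 44.8% of all genes were called, 22.2% as lower and 22.6% as higher. The median log2 fold change of the 9 genes was 0.35 without glucose, -0.40 without glutamine and -0.77 between the deprivations, beside medians over all genes of 0.02, 0.04 and 0.01. Both comparisons with control share the 2 control libraries.

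These shares depend on level, as the 9 genes are not rare RNAs. Among the 4472 genes that averaged 10 FPKM or more, 21.5% rose and 52.5% fell without glucose, with a median change of -0.16. Without glutamine 64.8% of them fell and 10.6% rose, with a median of -0.31, and between the deprivations 44.0% were lower and 18.1% higher, with a median of -0.13. With this scaling, most genes of that level thus fell without glutamine, as the 9 hosts did. At an equal FPKM total per library, 8.94% of these genes fell and 11.6% rose without glutamine (median -0.01), and 18.8% fell and 13.1% rose without glucose (median -0.06). The mean over 5 libraries was at least 10 FPKM in 7 of the 9 genes, the exceptions being SNHG8 (6.07) and ZFAS1 (7.498).

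**Figure D1:**
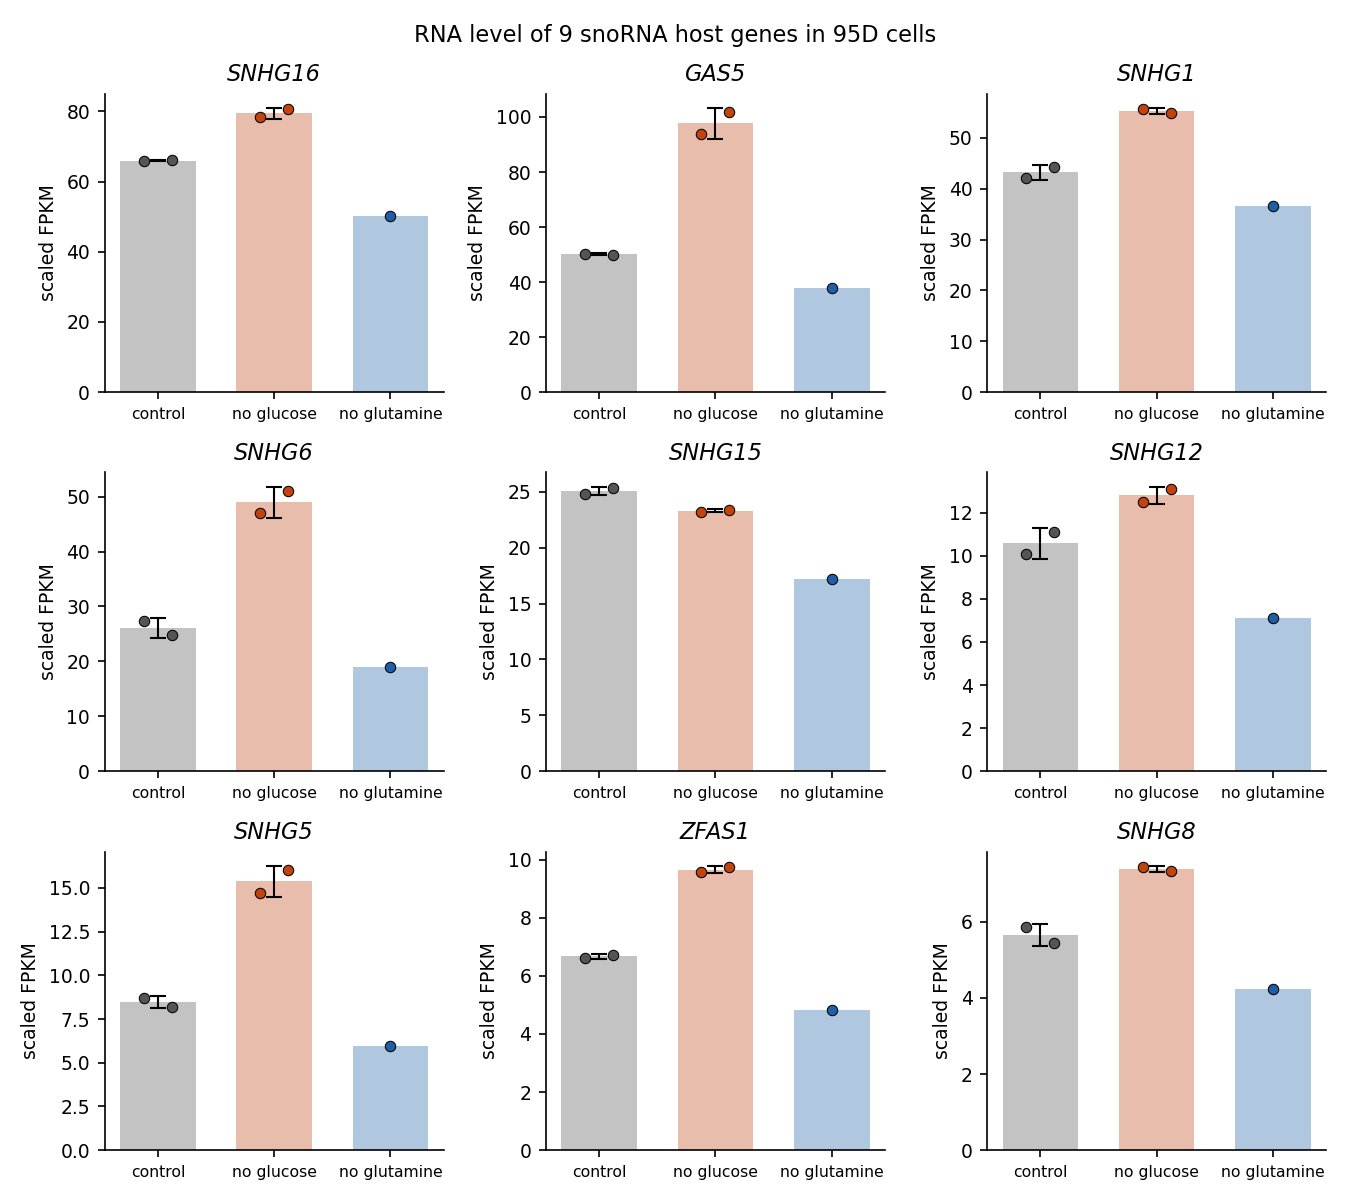
Scaled FPKM (y axis, linear, from 0, a scale of its own in each panel) of the 9 genes in control medium, without glucose and without glutamine (x axis); points are libraries, bars are means and error bars are the SD of 2 libraries, with no error bar for the single library without glutamine. In 8 panels the libraries without glucose lie above both controls, in that of SNHG15 they lie below, and in 9 of 9 panels the library without glutamine is the lowest.

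GAS5 (chromosome 1, 173863900 to 173868882, minus strand) holds 10 box C/D snoRNAs and 1 box H/ACA snoRNA in RefSeq. Its level was 50.3 and 49.9 scaled FPKM in the controls, 93.7 and 102 without glucose, and 37.9 without glutamine. The controls lay close together, and both deprived groups lay outside them on opposite sides. The mean rose from 50.1 ± 0.291 (SD, n = 2) to 97.7 ± 5.65 (SD, n = 2) without glucose, 1.95 times the control mean. The log2 fold change of GAS5 was 0.95 ± 0.05 (SE) without glucose (limma, adjusted p = 5.76e-06) and -0.40 ± 0.06 without glutamine (adjusted p = 0.000888), a level 24.5% below control. Between the deprivations GAS5 differed 2.58-fold, with a log2 difference of -1.34 ± 0.06 (adjusted p = 1.64e-05).

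SNHG6 (chromosome 8, 66921684 to 66926398, minus strand), host of the box C/D snoRNA SNORD87, had much the same profile at a lower level. It stood at 27.3 and 24.8 scaled FPKM in the controls, 47.0 and 51.0 without glucose, and 18.9 without glutamine, with no overlap between groups. The change was 0.89 ± 0.06 without glucose (1.88 times control, limma adjusted p = 2e-05) and -0.44 ± 0.08 without glutamine (adjusted p = 0.00204). Between the deprivations the ratio was 2.59, with a log2 difference of -1.32 ± 0.08 (adjusted p = 3.04e-05). With no filter on low values the call of SNHG6 without glutamine was lost (adjusted p = 0.0722).

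SNHG5 (chromosome 6, 85660950 to 85678748, minus strand), which carries SNORD50A and SNORD50B, was the third gene with a large rise. Its libraries read 8.70 and 8.21 scaled FPKM in control medium, 14.7 and 16.0 without glucose and 5.98 without glutamine. Here too the groups did not overlap. Without glucose the change was 0.79 ± 0.06 (1.82 times control, limma adjusted p = 2.4e-05), without glutamine it was -0.44 ± 0.07 (adjusted p = 0.00146), and between the deprivations -1.23 ± 0.07 (a ratio of 2.57, adjusted p = 3.04e-05).

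ZFAS1 (chromosome 20, 49278178 to 49295738, plus strand), host of SNORD12, SNORD12B and SNORD12C, lies antisense to the start of ZNFX1, from which it takes its name. It rose from 6.60 and 6.73 scaled FPKM in the controls to 9.56 and 9.75 without glucose, and stood at 4.84 without glutamine. The replicates of ZFAS1 differed little beside these gaps. The log2 fold change was 0.47 ± 0.06 without glucose (1.45 times control, limma adjusted p = 0.000245), -0.39 ± 0.07 without glutamine (adjusted p = 0.00209) and -0.87 ± 0.07 between the deprivations (adjusted p = 8.31e-05). By the outermost GENCODE starts, the ZNFX1 start lies 248 bases from that of ZFAS1 on the other strand and the genes overlap by 249 bases. The RefSeq start of ZFAS1 lies elsewhere, at base 49278642. ZNFX1 moved the other way without glucose, from 3.32 and 3.50 to 2.74 and 2.89 scaled FPKM (log2 fold change -0.21, adjusted p = 0.0105), and stood at 3.70 without glutamine (0.09, adjusted p = 0.266).

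SNHG1 (chromosome 11, 62851988 to 62855914, minus strand), in which RefSeq lists 9 snoRNAs, 8 of them named as box C/D, rose less. Its libraries read 42.2 and 44.3 scaled FPKM in control medium, 55.8 and 54.9 without glucose and 36.5 without glutamine. The groups did not overlap, but its distance from control without glutamine was the smallest of the 9. The change was 0.35 ± 0.04 without glucose (1.28 times control, limma adjusted p = 0.000284), -0.24 ± 0.05 without glutamine (adjusted p = 0.00654) and -0.58 ± 0.05 between the deprivations (adjusted p = 0.000133). The call of SNHG1 without glutamine was lost without control replicate 2 (-0.20, adjusted p = 0.0765) and with no filter on low values (adjusted p = 0.0543).

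SNHG1 begins 188 bases from SLC3A2, the heavy chain shared by several amino acid transporters, which is read in the opposite direction, with no overlap between the genes. SLC3A2 stood at 39.4 and 42.0 scaled FPKM in the controls, 91.3 and 100 without glucose and 41.7 without glutamine. It rose more than SNHG1 without glucose, by 1.21 on the log2 scale (limma adjusted p = 3.98e-06), and did not pass the test without glutamine (0.03, adjusted p = 0.702). Between the deprivations both genes were lower without glutamine, SLC3A2 by a log2 difference of -1.18 (adjusted p = 3.02e-05).

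SNHG16 (chromosome 17, 76557766 to 76565348, plus strand), host of SNORD1A, SNORD1B and SNORD1C, had the highest control level of the 9. It stood at 65.8 and 66.0 scaled FPKM in the controls, 78.4 and 80.6 without glucose, and 50.3 without glutamine. The 2 controls differed by far less than any gap between groups. The log2 fold change was 0.27 ± 0.04 without glucose (1.21 times control, limma adjusted p = 0.00079), -0.38 ± 0.05 without glutamine (adjusted p = 0.000396) and -0.65 ± 0.05 between the deprivations (adjusted p = 6.88e-05).

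SNHG12 (chromosome 1, 28578538 to 28583132, minus strand) carries both kinds, the box C/D snoRNA SNORD99 and 3 box H/ACA snoRNAs. It stood at 10.1 and 11.1 scaled FPKM in the controls, 12.5 and 13.1 without glucose, and 7.10 without glutamine. The rise was close in size to that of SNHG16, and the fall without glutamine was among the larger ones. The change was 0.25 ± 0.06 without glucose (1.21 times control, limma adjusted p = 0.00602), -0.52 ± 0.07 without glutamine (32.9% below control, adjusted p = 0.000503) and -0.77 ± 0.07 between the deprivations (adjusted p = 0.000133). The rise of SNHG12 was lost without control replicate 1 (0.19, adjusted p = 0.0819), without glucose-deprived replicate 2 (0.22, adjusted p = 0.0554) and with no filter on low values (adjusted p = 0.0961).

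SNHG8 (chromosome 4, 118278709 to 118279823, plus strand), host of the box H/ACA snoRNA SNORA24, was the lowest of the 9 genes and rested on 75 to 131 inferred reads per library. Its level was 5.86 and 5.46 scaled FPKM in the controls, 7.45 and 7.34 without glucose, and 4.24 without glutamine, again without overlap. The change was 0.34 ± 0.08 without glucose (1.31 times control, limma adjusted p = 0.00987), -0.35 ± 0.10 without glutamine (adjusted p = 0.0228) and -0.68 ± 0.10 between the deprivations (adjusted p = 0.00121). Both calls against control depended on single libraries, and that without glutamine was lost with a pseudocount of 0.1 (-0.41, adjusted p = 0.0501). The rise of SNHG8 was lost without control replicate 2 (0.29, adjusted p = 0.0862) or glucose-deprived replicate 1 (0.33, adjusted p = 0.0587), and the fall without control replicate 1 (-0.30, adjusted p = 0.115) or 2 (-0.39, adjusted p = 0.0636).

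SNHG15 (chromosome 7, 44983023 to 44986961, minus strand), host of the box H/ACA snoRNA SNORA9, was the exception without glucose. Its libraries read 24.8 and 25.3 scaled FPKM in control medium, 23.2 and 23.4 without glucose and 17.2 without glutamine. Both libraries without glucose lay just below both controls, but the change of -0.10 ± 0.04 did not pass the test (limma adjusted p = 0.0736). Without glutamine SNHG15 fell by 0.52 ± 0.05 on the log2 scale (adjusted p = 0.000111), 31.5% below control. The difference between the deprivations, -0.42 ± 0.05 (adjusted p = 0.000488), was the smallest of the 9.

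**Figure D2:**
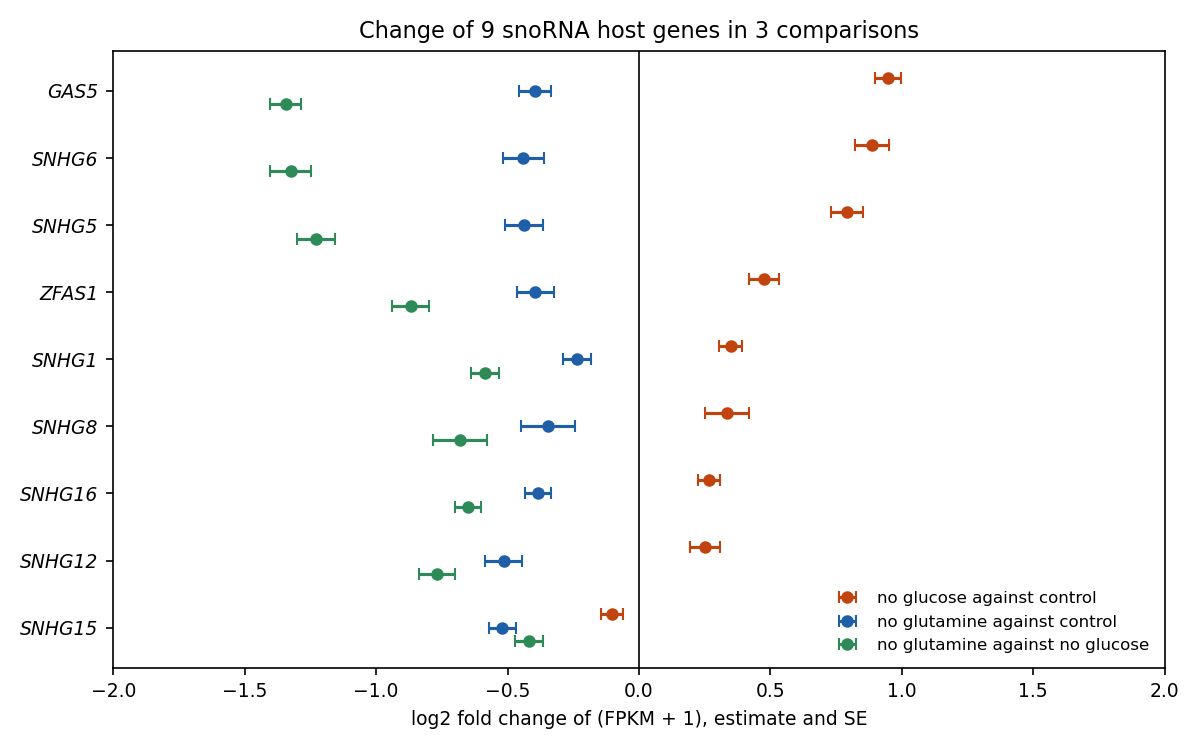
Log2 fold change of (FPKM + 1) (x axis) of the 9 genes (rows, ordered by their change without glucose) in the 3 comparisons; points are limma estimates and bars their SE. Changes without glucose run from -0.10 for SNHG15 to 0.95 for GAS5, whereas those without glutamine lie in a narrow band between -0.52 and -0.24.

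The 9 genes thus differed among themselves mainly in the medium without glucose. There their ratio to control ran from 0.929 (SNHG15) to 1.95 (GAS5), while without glutamine it ran only from 0.671 (SNHG12) to 0.845 (SNHG1). The 4 genes with the greatest rise, GAS5, SNHG6, SNHG5 and ZFAS1, carry box C/D snoRNAs, GAS5 with 1 box H/ACA snoRNA beside them. The genes with H/ACA snoRNAs as their main or sole cargo, SNHG8, SNHG12 and SNHG15, had ratios of 1.31, 1.21 and 0.929, but SNHG16 and SNHG1, with box C/D snoRNAs, stood at 1.21 and 1.28. The order was not one of level: SNHG5 rose at a control level of 8.46 ± 0.348 (SD, n = 2) and GAS5 at 50.1 ± 0.291. Libraries did not overlap between control and glucose deprivation in 9 of the 9 genes, 8 with both deprived libraries above both controls, as in 40.2% of all genes, and 1 with both below, as in 38.1%. The library without glutamine lay below both controls in 9 of the 9, as in 41.7% of all genes, and below both libraries without glucose in 9 of the 9, as in 42.0%.

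Scaling mattered most for the medium without glutamine. The 3 most abundant rows, RN7SL1, RN7SK and AL162581.1, took 34.7% and 34.0% of the FPKM total in controls 1 and 2. Their share was 35.8% and 37.9% without glucose and 34.5% without glutamine, and its part in the shifts below was not tested. Between the deprivations an equal total moved the median of all genes from 0.01 to 0.19. Equalizing the FPKM total also moved that median from 0.04 to 0.30 without glutamine and from 0.02 to 0.11 without glucose. Under it 0 of the 9 genes were called without glutamine by limma, also at an unadjusted p under 0.05, with a median of -0.12 and SNHG1 at 0.08. With values as deposited or an upper-quartile scaling 7 of the 9 fell, with medians of -0.25 and -0.24, and SNHG1 (adjusted p = 0.351 and 0.319) and SNHG8 (adjusted p = 0.119 and 0.138) did not pass. Relative to the median of all genes, the 9 genes' median without glutamine stayed between -0.44 and -0.42 under the 4 scalings. A scaling shifts all genes of a library nearly alike, so this closeness follows from the subtraction and tests nothing. Without glutamine, genes averaging 10 FPKM or more had a median of -0.31 with the trimmed mean and -0.01 at an equal total. Values as deposited gave them -0.16 and the upper quartile -0.14. Without glucose 7 of the 9 genes rose at an equal total, as SNHG16 did not pass (0.38, adjusted p = 0.0683) and SNHG15 stood at 0.01. Between the deprivations 6 were lower at an equal total, as SNHG1 (adjusted p = 0.155), SNHG15 (adjusted p = 0.426) and SNHG16 (adjusted p = 0.0953) did not pass.

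The split of all calls moved with scaling too. Of the genes called without glutamine 48.2% were higher with the trimmed mean, 67.5% with values as deposited, 68.3% with the upper quartile and 91.3% at an equal total. Without glucose these shares were 48.4%, 54.1%, 60.0% and 67.8%, and between the deprivations 50.4%, 68.2%, 62.6% and 85.6%. The direction of the 8 rises without glucose and of the 9 differences between the deprivations was the same under the 4 scalings.

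**Figure D3:**
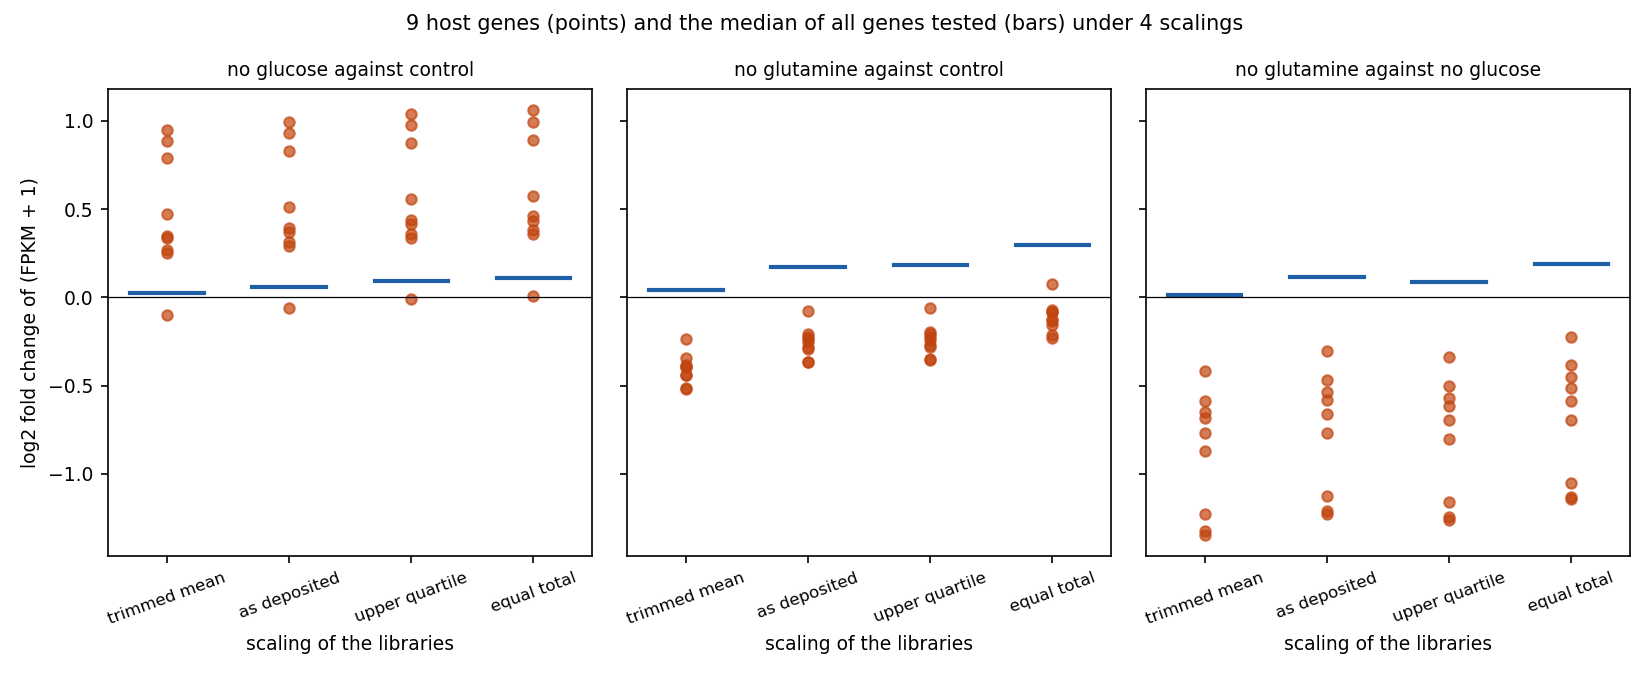
Log2 fold change of (FPKM + 1) (y axis) of the 9 genes (points) and median of all genes tested (blue bars) under 4 scalings of the libraries (x axis), 1 panel per comparison. Points and bars lie higher at an equal FPKM total than with the trimmed mean. The rise is not steady between the deprivations. There the bar stands at 0.11 as deposited and 0.08 at the upper quartile, and the median of the points at -0.66 and -0.70. At an equal total the points without glutamine lie between -0.23 and 0.08, with only SNHG1 above 0, and the bar stands at 0.30.

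Other non-coding snoRNA hosts were called in both directions without glucose and mostly as lower without glutamine. Of 19 other non-coding snoRNA hosts 17 were tested, and without glucose 5 rose and 4 fell, with a median of -0.09 that turned to 0.00 at an equal FPKM total. SNHG32, which carries box C/D snoRNAs, rose from 17.1 and 16.9 scaled FPKM to 39.7 and 44.3 (log2 fold change 1.25, limma adjusted p = 4.3e-06), an estimate above that of GAS5. SNHG7 rose from 17.6 and 16.9 to 32.4 and 35.9 (0.94, adjusted p = 9.31e-06). SNHG29, EPB41L4A-AS1 and SNHG25 were the other 3 that rose, by 0.70, 0.65 and 0.46. SNHG17 (-0.35, adjusted p = 0.000393), SNHG4 (-0.31, adjusted p = 0.000941), SNHG30 (-0.63, adjusted p = 0.00136) and SNHG3 (-0.16, adjusted p = 0.0177) fell. Without glutamine 1 rose (SNHG7, 0.25) and 6 fell, with a median of -0.24 that turned to 0.07 at an equal total, where 1 rose and 1 fell. Between the deprivations 2 were higher (SNHG4 and SNHG17) and 6 lower, among them SNHG32 (-1.36) and SNHG25 (-1.27), with a median of -0.14 that turned to 0.04 at an equal total.

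Protein-coding snoRNA hosts, mostly genes of ribosomal proteins and translation factors, were tested in 53 of 53 cases. Without glucose 27 rose and 16 fell, with a median of 0.15. EEF2, the factor that moves the ribosome along, rose from 786 and 756 to 1220 and 1316 scaled FPKM (0.72, limma adjusted p = 3.93e-05), and RPL10 rose by 0.55. TCP1, a chaperonin subunit, and EIF4G2, an initiation factor, fell by 0.68 and 0.59. Without glutamine 3 rose and 38 fell, with a median of -0.42; at an equal FPKM total these counts were 3 and 5 and the median -0.10. The chaperone HSPA8 fell from 299 and 343 to 146 (-1.12, adjusted p = 3.41e-05) and PRRC2A rose from 23.1 and 24.0 to 48.2 (1.00, adjusted p = 1.6e-05). Between the deprivations 5 were higher and 44 lower, with a median of -0.52. An equal total gave 16 higher and 4 lower without glucose and 4 higher and 13 lower between the deprivations.

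Of 31 TOP mRNAs outside the list of protein-coding snoRNA hosts, 23 rose and 0 fell by limma without glucose. At an unadjusted p under 0.05 also 0 fell, and the median was 0.25. Whether these genes hold snoRNAs was not checked. Without glutamine 1 rose and 25 fell, with a median of -0.29 that turned to 0.03 at an equal FPKM total. Between the deprivations 30 were lower and 0 higher (0 also unadjusted), with a median of -0.59. At an equal total 12 rose and 0 fell without glucose, 1 rose and 1 fell without glutamine, and 6 were lower and 0 higher between the deprivations. The rises were moderate: RPS4X, a small-subunit protein, rose by 0.15 (limma adjusted p = 0.0245), RPL18 by 0.20 (adjusted p = 0.0101) and EIF3F by 0.59 (adjusted p = 3.12e-05). PABPC1, the cytoplasmic poly(A)-binding protein, was the one that rose in both media, from 110 and 108 scaled FPKM to 199 and 187 without glucose (0.82) and 208 without glutamine (0.93, adjusted p = 2.31e-05). NPM1, a nucleolar chaperone, did not pass without glucose (-0.02, adjusted p = 0.808) and fell by 0.85 without glutamine (adjusted p = 3.37e-05).

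Most genes for the proteins that assemble with snoRNAs were lower in both media. Of 18 tested, 3 rose and 12 fell without glucose (median -0.27), 15 fell without glutamine (median -0.53), and 11 were lower between the deprivations (median -0.29), with 0 higher by limma in both of the latter, also at an unadjusted p under 0.05. At an equal FPKM total the medians kept their sign, at -0.16, -0.23 and -0.12, and 3, 2 and 0 genes fell or were lower. NOP10, a core protein of box H/ACA particles, fell from 122 and 125 scaled FPKM to 59.2 and 68.2 without glucose (-0.95, limma adjusted p = 1.89e-05) and 69.4 without glutamine (-0.82, adjusted p = 0.000115). NOLC1, a nucleolar chaperone of snoRNA particles, fell by 0.58 and 0.54. NHP2 of the box H/ACA core fell by 0.48 and 0.71, and SNU13 of the box C/D core by 0.23 and 0.67.

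Factors of nonsense-mediated decay moved in both directions. Without glucose 5 of 19 rose and 9 fell (median -0.10, 0.00 at an equal FPKM total), without glutamine 7 rose and 8 fell (median -0.09, 0.21 at an equal total), and between the deprivations 7 were higher and 7 lower (median 0.04). At an equal total 4 rose and 2 fell without glucose, 7 rose and 1 fell without glutamine, and 2 were higher and 0 lower between the deprivations, where values as deposited gave 9 and 1. EIF4A3, the core helicase of the exon junction complex, fell from 23.1 and 25.01 scaled FPKM to 14.8 and 15.9 without glucose (-0.62, limma adjusted p = 5.78e-05) and 14.98 without glutamine (-0.65, adjusted p = 0.000145). Its partner MAGOH fell by 0.41 and 0.87, and the release factor ETF1 by 0.66 and 0.58. CASC3, also of that complex, rose by 0.36 and 0.40, the exonuclease XRN1 by 0.51 and 0.30, and the kinase SMG1, which phosphorylates UPF1, by 0.29 and 0.58. Decay itself was not measured.

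Long non-coding RNAs with no snoRNA mostly rose in both media. Of 25 listed, 24 were in the tables and 20 tested; 17 rose and 2 fell without glucose (median 0.44) and 11 rose and 3 fell without glutamine (median 0.21). NEAT1, the scaffold of paraspeckles, rose from 4.93 and 5.89 scaled FPKM to 21.2 and 17.0 without glucose (1.65, limma adjusted p = 1.08e-05) and 24.4 without glutamine (1.99, adjusted p = 2.31e-05). MALAT1, a nuclear speckle RNA, rose by 1.40 and 0.78. MIR17HG, which carries microRNAs in its introns, rose by 0.25 without glucose (adjusted p = 0.00141) and fell by 0.62 without glutamine (adjusted p = 5.64e-05), the same directions as the 8 hosts. Between the deprivations 1 of the 20 was higher and 7 were lower, with a median of 0.02, against -0.77 for the 9 hosts. At an equal total 14 rose and 1 fell without glucose, 11 rose and 1 fell without glutamine, and 2 were higher and 1 lower between the deprivations. The difference between the lists was not tested.

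**Figure D4:**
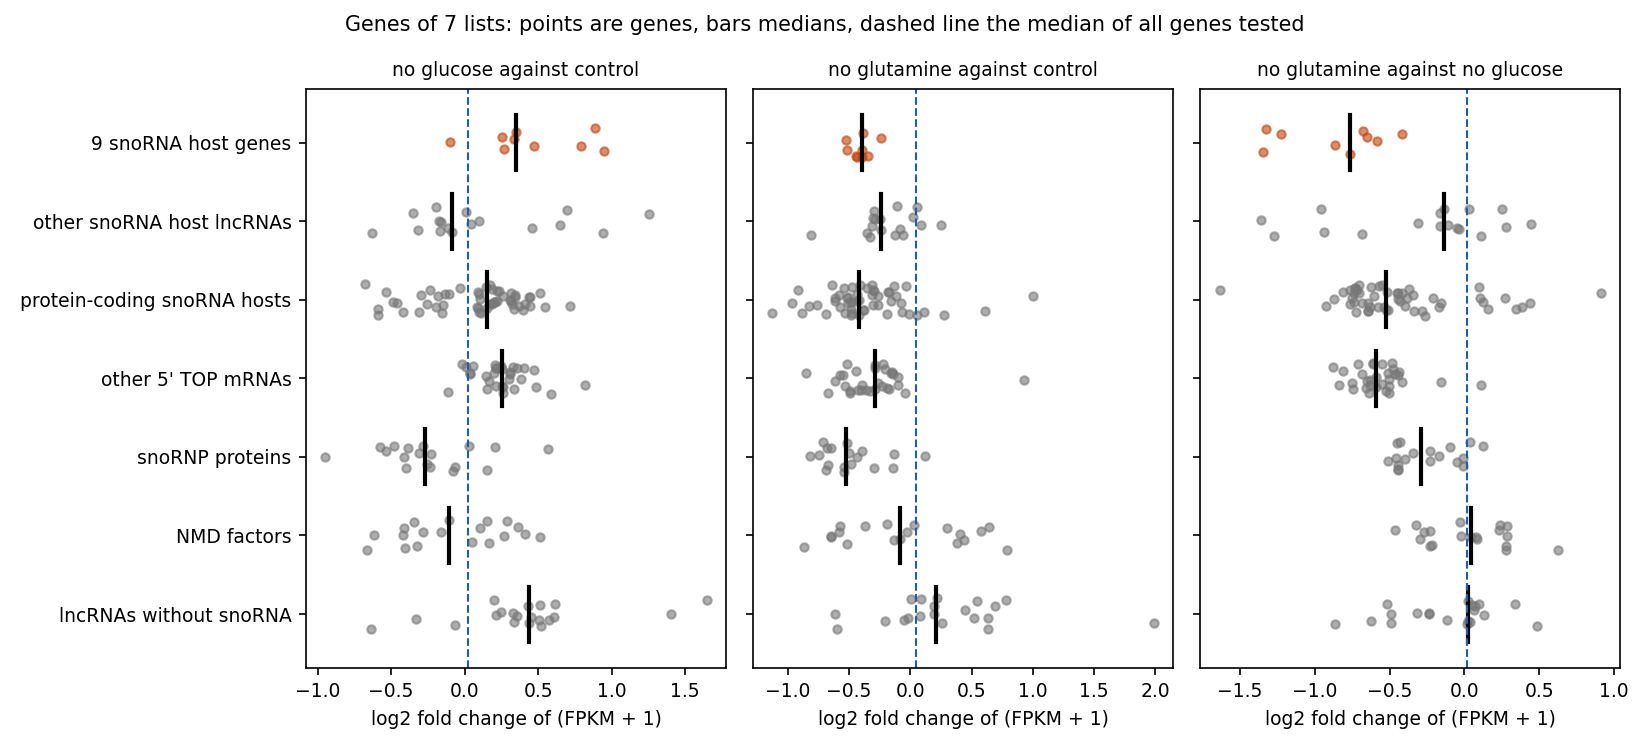
Log2 fold change of (FPKM + 1) (x axis) of each gene in 7 lists (rows), 1 panel per comparison; points are genes with a vertical jitter, black bars are list medians and the dashed line is the median of all genes tested. In the right panel the 9 hosts (median -0.77), the protein-coding hosts (-0.52) and the other TOP mRNAs (-0.59) lie mostly left of the dashed line.

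The snoRNAs themselves were poorly covered by these libraries. RefSeq lists 35 within the 9 genes, 28 of them named as box C/D and 6 as box H/ACA. Of 33 looked for by name 23 had a row, of which 12 were listed at 0 in 5 of 5 libraries, 5 stayed below 1 FPKM and 6 were tested. By limma with the trimmed mean 0 of the 6 rose in any of the 3 comparisons, also at an unadjusted p under 0.05. The 3 other scalings each gave 1 that rose without glutamine at an unadjusted p under 0.05. At an equal total 1 rose without glucose at that threshold too. SNORA61, within SNHG12, had positive estimates of 0.80 without glucose and 1.04 without glutamine and was not called. SNORD1B, within SNHG16, fell from 4.19 and 3.76 scaled FPKM in the controls to 1.60 and 2.08 without glucose (-0.81 ± 0.29, limma adjusted p = 0.0446) and 0.636 without glutamine (-1.60 ± 0.36, adjusted p = 0.00633). SNORD12C, within ZFAS1, fell from 14.8 and 9.46 to 4.22 and 7.20 without glucose (-0.98 ± 0.29, adjusted p = 0.0195) and 4.801 without glutamine (-1.15 ± 0.35, adjusted p = 0.0246). SNORD12B, also within ZFAS1, read 24.2 and 29.1 in the controls, 22.1 and 20.8 without glucose (-0.30, adjusted p = 0.099) and 17.0 without glutamine (-0.61, adjusted p = 0.0156). The hosts SNHG16 and ZFAS1 rose without glucose, where SNORD1B and SNORD12C fell, while without glutamine hosts and these snoRNAs fell. This contrast names only the snoRNAs called in both media. Among those not called, SNORA9 within SNHG15 had estimates of 0.03 without glucose and -0.62 without glutamine. SNORD99 within SNHG12 had -0.165 and -1.24, but at an equal total it was called as lower without glutamine (-1.05). SNORD1B is short and stood below 1 FPKM without glutamine, so it rests on few reads, whose number was not inferred. The reads behind SNORD12C were not inferred either, and its 2 controls lay apart, at 14.8 and 9.46. The fall of SNORD1B without glucose was not called with values as deposited (adjusted p = 0.0506), an upper-quartile scaling (0.0556) or an equal total (0.113). That of SNORD12B without glutamine was not called with an upper-quartile scaling (adjusted p = 0.0522) or an equal total (0.194). Between the deprivations 0 of the 6 were called with the trimmed mean, also at an unadjusted p under 0.05. At an equal total 0 were called and 1 was lower at an unadjusted p under 0.05. How many of these rows' reads came from mature snoRNA rather than from the intron around it was not tested.

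Gene-level values of the 9 hosts do not separate spliced transcripts from those that keep an intron, and the strand setting of the counting was not given in the sources used here, so reads from genes that overlap on opposite strands cannot be told apart. By the outermost GENCODE starts, GAS5 overlaps ZBTB37, a zinc finger gene, by 801 bases. ZBTB37 read 3.08 and 3.04 scaled FPKM in the controls, 3.84 and 3.84 without glucose (0.25, limma adjusted p = 0.00131) and 4.05 without glutamine (0.31, adjusted p = 0.00141), so it rose where GAS5 fell. GAS5-AS1, which overlaps GAS5 by 42 bases, stayed at 0.698 to 1.48. SNHG12 overlaps TRNAU1AP by 8 bases, and TRNAU1AP fell by 0.34 without glucose (adjusted p = 0.000651), where SNHG12 rose, and by 0.35 without glutamine (adjusted p = 0.0019), where SNHG12 fell too. MCMDC2 at SNHG6 and AC015802.4 and AC015802.6 at SNHG16, which also overlap or diverge from a host, stayed below 1 FPKM in 5 of 5 libraries and were not tested.

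The genes most like the 9 hosts over the 5 libraries were sought among 4465 other tested genes that averaged 10 FPKM or more, by the Euclidean distance between a gene's log2(FPKM + 1) profile, centred on its mean, and the median profile of the hosts. The nearest 8 were ARFGAP3 (distance 0.0831), PDIA3 (0.0891), RPL27A (0.0908), ERLIN2 (0.0951), RPL26 (0.0958), PRIM1 (0.0967), PRKAG1 (0.0987) and SLC25A38 (0.0990). Of these RPL27A and RPL26 code for proteins of the large ribosomal subunit, and PDIA3 for a disulfide isomerase of the endoplasmic reticulum. RPL26 read 430 and 427 scaled FPKM in the controls, 561 and 549 without glucose and 312 without glutamine. The hosts themselves lay farther from their own median, from 0.116 for ZFAS1 to 0.619 for GAS5, as GAS5, SNHG6 and SNHG5 rose more and SNHG15 did not pass the test without glucose. The 8 genes were picked as the smallest of 4465 distances and the hosts were not, so that comparison tests nothing.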

How the data were processed

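Per the labels' protocols, total RNA of 95D cells was depleted of ribosomal RNA and sequenced in pairs of 150-base reads. The submitters' processing notes name HISAT2 2.0.5, StringTie and the build hg38. Not given in the sources used here are annotation, StringTie version and strandedness of counting. Values that the authors deposited were read as FPKM, a unit no header names, because they are fractional, sum to between 493129 and 571208 in a library, and fall on steps of whole reads in 95.2% to 95.7% of low single-exon genes (within 0.05 reads). These steps gave the inferred depths. The second value column of the glutamine table is headed as glucose deprivation replicate 2. That 1 column matched no single sample and was left out, so 5 of 6 labelled libraries entered.

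FPKM were divided by trimmed-mean factors (0.960, 0.971, 1.01, 0.979 and 1.08 for controls 1 and 2, glucose-deprived 1 and 2, and glutamine-deprived 1; trim of 30% of ratios and 5% of abundances). The 16598 genes that reached 1 FPKM in any library, the 9 hosts among them, were fitted on log2(FPKM + 1) with limma 3.58.1 in R 4.3.3, with group as the only term, a variance trend over inferred reads (mean FPKM times exon length in GENCODE release 29), two-sided p-values and 2 residual degrees of freedom. The single library without glutamine takes its spread from the other groups. The fit was tested on simulated data. Sequences and snoRNA positions are from RefSeq on GRCh38.p14, and gene coordinates and transcript starts from GENCODE release 29 on GRCh38.

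Every host was named. From each other list up to 4 called genes averaging 10 FPKM or more per comparison, the largest and smallest changes, could be named, and overlapping genes were named by position; SNHG30 and EPB41L4A-AS1 were named after their values were seen. The 9 hosts and all lists were chosen with earlier results of these data known, and no list was tested as a set. Alternatives were 3 other scalings, a pseudocount of 0.1, other low-value filters, another variance trend, robust variances, a replicate block and leaving out each control and glucose-deprived library.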

Additional observations from a re-analysis of the deposited data

Results flagged for a closer look

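Each of the 9 hosts differed between the deprivations by the test of that difference itself (limma, adjusted p below 0.05 over all genes), lower without glutamine than without glucose. In this comparison 44.8% of all genes were called, 22.2% as lower. Among genes averaging 10 FPKM or more 44.0% were lower. The log2 differences were -1.34 for GAS5, -1.32 for SNHG6, -1.23 for SNHG5, -0.87 for ZFAS1, -0.77 for SNHG12, -0.68 for SNHG8, -0.65 for SNHG16, -0.58 for SNHG1 and -0.42 for SNHG15. These values rest on 1 library without glutamine, and those of SNHG1, SNHG15 and SNHG16 did not pass at an equal FPKM total (adjusted p = 0.155, 0.426 and 0.0953).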

How the results depend on the processing

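Of 117 values of single hosts per comparison (13 alternatives for each of 9 genes), 110 without glucose, 98 without glutamine and 114 between the deprivations kept their direction and their side of the threshold; 6, 18 and 3 no longer passed, and 1, 1 and 0 changed sign. At an equal FPKM total SNHG15 stood at 0.0085 without glucose (log2, adjusted p = 0.975) and SNHG1 at 0.076 without glutamine (adjusted p = 0.792), the 0 of 9 hosts called there without glutamine replaced 9, and limma called 5512, 6165 and 4309 of all genes in place of 9138 without glucose, 8500 without glutamine and 7433 between the deprivations. With single libraries left out, 5838 to 7931 genes were called without glucose, 5639 to 8471 without glutamine and 5452 to 6277 between the deprivations; the lowest of each came without control replicate 1, 2 and 2, and without control replicate 2 it was 5966 without glucose. With no filter on low values, over 34222 genes, 2851 rose and 3295 fell without glucose. The causes were not tested.

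Replicate numbers are shared by the controls and the glucose-deprived libraries, but same-numbered libraries did not deviate together (r = -0.02 over 16598 genes), so the numbers were not taken to pair samples. A fit with the replicate number as a block called 8 hosts without glucose and 9 in both other comparisons, and 8884, 7602 and 6437 genes. Leaving out the only library without glutamine was not possible. Depth limits the low hosts most: the lowest library of SNHG8 rests on 75 inferred reads, a counting error of 11.6%, against 1.94% at the 2665 reads of SNHG16. These reads were inferred from deposited FPKM, inferred depth and the median length of a host's GENCODE transcripts. That length was 470 bases for SNHG8 and 1415.5 for SNHG16, and another length would change the reads.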
